A study of Mus musculus with 61 samples.

Results

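Sox2 sites found with the control hairpin alone were examined at day 3 of reprogramming. They were taken from 3 lists of Sox2 binding positions, made by ChIP-seq with 1 immunoprecipitate and 1 input library each for the hairpins Chaf1a.166, Chaf1a.2122 and Renilla. Positions of the 3 lists were pooled, neighbours within 200 bp were joined into sites, and a site was kept when only the Renilla list held it and no knockdown position lay within 1 kb. Of 25432 joined sites, 17645 had a Renilla position and 2702 met the rule, which is 15.3% of the sites with a Renilla position (95% exact interval 14.8 to 15.9). The sites were chosen by the presence or absence of positions in these lists, so that share and all scores below are descriptions without a test.

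All cells were mouse embryonic fibroblasts from E13.5 embryos of strain Black6-129X1/SvJ. They carried the alleles Col1a1::tetOP-OKSM and R26-M2rtTA, an inducible cassette of Oct4, Klf4, Sox2 and Myc with the transactivator that doxycycline switches on. They were grown in ES cell medium with serum, LIF and ascorbate and received doxycycline at 2 µg/ml. Knockdown cells expressed the hairpin Chaf1a.166 or Chaf1a.2122, both against the largest subunit of the histone chaperone CAF-1, and the control cells a hairpin against Renilla luciferase, which mouse cells do not express. Sono-seq, which sequences the DNA that sonication frees from fixed chromatin and so reads out accessibility, was done on 3 libraries labelled CAF-1 knockdown and 3 labelled Renilla at the same day. Its table gives 1 value per condition and region, for 14265 enhancers and 5513 start sites of mouse ES cells that belong to 5154 genes. Libraries were made from whole cultures, so a lower share of cells with Sox2 at a site and weaker binding in each cell cannot be told apart. With 1 immunoprecipitate per hairpin, no difference between hairpins has a replicate check. Coordinates are mm9 unless another build is named.

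Sox2 belongs to the HMG box family and binds a short AT-rich core, often beside the octamer letters that Oct4 reads. Early in reprogramming it is known to occupy many distal elements that are closed in fibroblasts. CAF-1 places histones H3 and H4 on newly copied DNA, so its loss is known to loosen chromatin and to speed reprogramming. Absence of a position from a list means only that none passed the threshold of that list, and the levels of Chaf1a and of fibroblast markers were not checked here.

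The promoter sequences of 5 genes are shown because control-only sites lay in or beside them. Among control-only sites they belong to the best-scored ones between 250 bp before and 50 bp after a listed start site, for genes with exactly 1 entry in the RefSeq promoter table of build GRCm38.p6. Each line gives the 250 bases before the RefSeq start, 5′ to 3′ on the strand of the gene. Capitals mark any of 4 motifs searched on both strands, namely CATTGT and CTTTGT (cores read by Sox factors), ATGCAAAT (the octamer) and GGGCGG (the GC box of Sp and Krüppel-like factors). Genes were matched by transcript or symbol, and whether the RefSeq start is the mm9 start of the Sono-seq table was not tested.
Nras: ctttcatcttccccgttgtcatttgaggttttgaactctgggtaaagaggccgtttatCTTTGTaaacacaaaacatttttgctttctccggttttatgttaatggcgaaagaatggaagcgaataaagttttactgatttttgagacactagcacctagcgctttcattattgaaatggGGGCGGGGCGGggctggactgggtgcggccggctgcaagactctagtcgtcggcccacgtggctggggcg
Eif4b: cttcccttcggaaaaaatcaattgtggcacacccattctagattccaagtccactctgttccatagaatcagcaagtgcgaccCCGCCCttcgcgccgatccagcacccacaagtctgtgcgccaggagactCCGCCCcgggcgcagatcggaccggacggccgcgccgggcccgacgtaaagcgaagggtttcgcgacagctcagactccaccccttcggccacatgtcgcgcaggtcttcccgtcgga
Baz2b: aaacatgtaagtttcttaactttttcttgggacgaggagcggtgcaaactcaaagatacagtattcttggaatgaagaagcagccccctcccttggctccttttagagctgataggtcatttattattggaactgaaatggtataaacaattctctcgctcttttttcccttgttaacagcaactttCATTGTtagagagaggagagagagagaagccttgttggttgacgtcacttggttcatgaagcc
Riok2: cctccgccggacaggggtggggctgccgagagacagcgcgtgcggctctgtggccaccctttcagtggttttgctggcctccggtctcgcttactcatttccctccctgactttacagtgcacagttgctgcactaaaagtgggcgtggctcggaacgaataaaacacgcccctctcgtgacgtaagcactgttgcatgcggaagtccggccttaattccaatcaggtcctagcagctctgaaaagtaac
Cstf1: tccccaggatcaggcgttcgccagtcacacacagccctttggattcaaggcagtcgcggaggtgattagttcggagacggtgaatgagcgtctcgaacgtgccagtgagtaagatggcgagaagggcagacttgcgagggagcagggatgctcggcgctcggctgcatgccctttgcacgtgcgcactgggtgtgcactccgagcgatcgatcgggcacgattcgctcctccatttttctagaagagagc
In these coordinates the Nras promoter is chr3:103058035-103058284 on the plus strand, and that of Eif4b chr15:102073523-102073772 on the plus strand. The Baz2b promoter is chr2:60125741-60125990 on the minus strand, that of Riok2 chr17:17374082-17374331 on the plus strand and that of Cstf1 chr2:172370753-172371002 on the plus strand. The Baz2b window held 1 CATTGT and the Nras window 1 CTTTGT. The Nras and Eif4b windows each held 2 GC boxes, which overlap in Nras. None of the 4 motifs was found in the Riok2 and Cstf1 windows, and none of the 5 windows held the octamer. The GC content ran from 41.2% in Baz2b to 62% in Eif4b.

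The same letters were counted in promoters of genes whose listed start was the nearest one to a control-only site, within 1 kb. Further starts within 1 kb of the same site, such as that of Aurka beside Cstf1, were not counted. Outside chromosome 18, which was left out, 102 such start sites were at hand, of which 87 (85.3%) had an entry, with 109 promoters. The octamer stood in 1 of these 109 promoters (0.917%), that of Ndufs4, against 16 of 311 (5.14%) at sites held by all 3 lists. Of those 16, 3 were histone genes, a family whose promoters are known to carry it, and without histone genes the counts were 1 of 108 (0.926%) and 13 of 303 (4.29%). CATTGT stood in 4.59% of promoters at control-only sites and in 10.3% at shared ones, and CTTTGT in 16.5% and 21.5%. The GC box was present in 56.0% and 58.8%. Among promoters of all listed start sites the shares were 5.96% (CATTGT), 12.3% (CTTTGT), 1.69% (octamer) and 62.7% (GC box), and over the 32851 promoters from RefSeq, 10.7% (CATTGT), 16.5% (CTTTGT), 1.601% (octamer) and 32.7% (GC box). Promoters of the sites found with Chaf1a.166 alone and Chaf1a.2122 alone held the octamer in 1 of 93 (1.08%) and 3 of 163 (1.84%). They held CATTGT in 7.53% and 4.91%, and CTTTGT in 11.8% and 16.0%, so lower shares than at shared sites were not particular to control-only sites. With 1 octamer, 5 CATTGT and 18 CTTTGT promoters of 109, the counts at control-only sites are small. Nothing is read from their differences to all listed start sites or to shared sites. A match of letters is a description of the sequence and not a Sox2 site. Many of the sites lie outside the bases searched. Of the 104 control-only sites within 1 kb of a listed start, 53 lay within 250 bp of it on either side. For shared sites this was 159 of 293. Genes could have several entries, with 109 promoters for 86 genes at control-only sites and 311 for 225 genes at shared ones. Entries of the same gene are not independent, and some may have no site nearby. The counts thus describe promoters of genes with a site near a listed start and not the sequence at the sites.

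Every control-only site consisted of a single Renilla position. Before the limit of 1 kb, 2982 sites were held by the Renilla list alone, and 280 of them were left out because a knockdown position lay 201 to 1000 bp away. The sites just outside and just inside that limit had similar scores. The 280 left out had a median rank of 14253.5 among 17681 Renilla positions and a median enrichment over input of 6.12. The 164 kept with a knockdown position over 1 kb and up to 2 kb away had a median rank of 15081.5 and a median enrichment of 5.27. Of the 280, 20 (7.14%) were within 1 kb of a listed start site, as were 14 of the 164 (8.54%) and 90 of the 2538 kept at over 2 kb (3.55%).

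Applied to the other lists, the same rule gave 1815 sites for Chaf1a.166 alone (11.4% of its sites) and 3739 for Chaf1a.2122 alone (19.4%). The number followed the length of the list, which was 17681 positions for Renilla, 15888 for Chaf1a.166 and 19319 for Chaf1a.2122. With the best 15888 positions of each list, there were 2333 sites of Renilla alone, 2468 of Chaf1a.166 alone and 2231 of Chaf1a.2122 alone. With a lower bound of enrichment over input of at least 2 asked of every list, the numbers were 2500 for Renilla, 1966 for Chaf1a.166 and 2266 for Chaf1a.2122. Which list had the most sites of its own thus changed with the threshold.

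The control-only sites had low scores in the Renilla list. Their median rank was 14522.5, against 5645.5 for shared sites, and 2565 of them (94.9%) fell in the lower part of the list by score (below its middle), against 27.9% of shared sites. None was among the best 1000 positions, 4 were among the best 5000 and 270 among the best 10000. They made up 0.226% of the third score decile, 5.77% of the fifth, 20.1% of the seventh and 47.2% of the last. The median score was 15.3 (quartiles 14.1 and 17.3), where the lowest score of the list is 13.3, against a median of 28.8 for shared sites. By the authors' enrichment over input the median was 5.27 (quartiles 3.44 and 8.78), against 10.3 for shared sites. The lower bound of that enrichment was at least 2 for 976 control-only sites (36.1%) and 78.2% of shared sites.

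**Figure D1:**
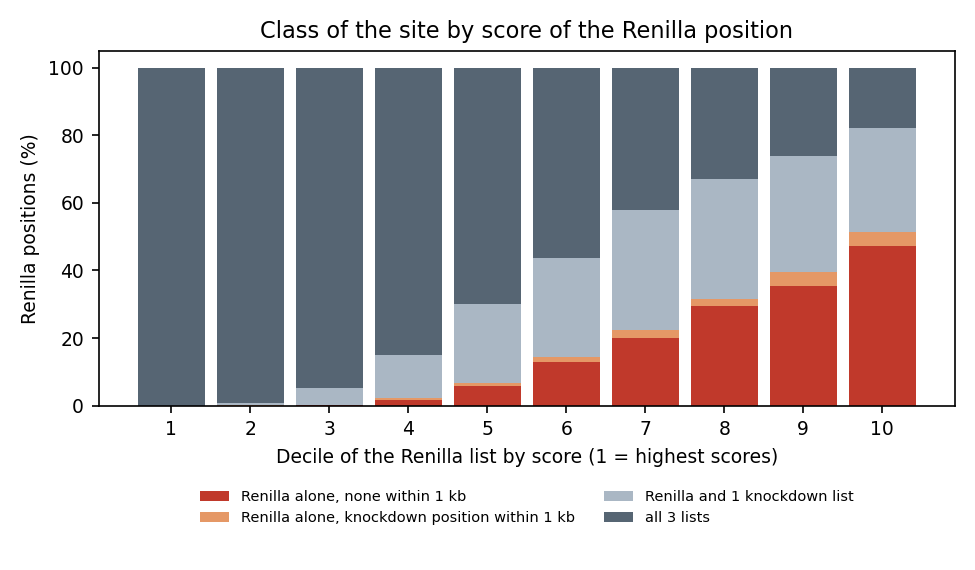
Share of Renilla positions in each class of site (y axis, %) by score decile of the Renilla list (x axis, 1 holds the highest scores; 1768 or 1769 positions each). Control-only sites (red) are absent from the first 2 deciles and make up 47.2% of the last, where shared sites make up 17.98%.

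The 5 best-scored control-only sites were all distal to listed genes, at 75424 bp or more. The best, on chromosome 7 at 101364350, ranked 4490 with a score of 32.9 and an enrichment of 7.10, and the nearest knockdown position was 60260 bp away. Its nearest listed start site was that of Rab30, a small GTPase of the Golgi, at 1474127 bp. The next, on chromosome 10 at 102130096, ranked 4696 with an enrichment of 17.2 and lay 7578 bp from a Chaf1a.2122 position and 3404232 bp from Dusp6, a phosphatase of the ERK pathway. The site on chromosome 7 at 47197842 (rank 4710, enrichment 8.78) had AW146154 as nearest listed gene, 1557418 bp away. The site on chromosome 16 at 20351043 (rank 4965, enrichment 8.93) was 75424 bp from Abcc5, an exporter of the ABC family. The fifth, on chromosome 16 at 93285578 (rank 5522, enrichment 11.1), was 546787 bp from Morc3, a nuclear ATPase. All 5 had a lower bound of enrichment above 2, from 2.28 to 4.90.

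Most control-only sites stood alone. The nearest knockdown position was a median of 23193.5 bp away (quartiles 7386 and 56794.5), and the nearest other Renilla position 27305 bp. No other Sox2 position of any list lay within 10 kb of 1777 sites (65.8%) or within 100 kb of 300 (11.1%). The rule itself leaves out sites with a knockdown position within 1 kb. These shares were not computed for the other classes of site, so isolation is not read as particular to control-only sites. The most isolated control-only site, on chromosome 14 at 89648742, had its closest Sox2 neighbour at 1815604 bp. The next in order, on chromosome 5 at 79955460 and chromosome 14 at 96467029, had theirs at 1292272 and 1169418 bp. Another control-only site lay within 10 kb of 161 (5.96%). A Chaf1a.2122 position was the nearer knockdown neighbour for 1550 sites and a Chaf1a.166 position for 1140, and the Chaf1a.2122 list is the longer one.

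Sites held by all 3 lists were not especially close by. A shared site lay within 10 kb of 482 control-only sites (17.8%, 16.4 to 19.3), of 19.0% of the sites of Chaf1a.166 alone (17.2 to 20.9) and of 18.9% of those of Chaf1a.2122 alone (17.7 to 20.2). Of shared sites, 23.4% (22.6 to 24.2) had another shared site in that range. The rule itself keeps control-only sites 1 kb away from knockdown positions and so from nearly all shared sites, which removes close pairs from the single-list classes only. Median distances to the nearest shared site were 49034.5 bp for Renilla alone, 42458 bp for Chaf1a.166 alone, 44852 bp for Chaf1a.2122 alone and 37015 bp between shared sites. Intervals of shares here and below are exact Clopper-Pearson intervals over sites, cover counting error only, and treat neighbouring sites as independent.

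Control-only sites occurred on all 20 chromosomes that had Renilla positions. The share of Renilla sites that were control-only ran from 13.0% on chromosome 15 (94 of 721) to 18.2% on chromosome 3 (211 of 1157). It was 16.0% on the X chromosome (50 of 313, 12.1 to 20.5). The interval of chromosome 3, 16.1 to 20.6, lies above the 15.3% of all chromosomes, and it is the extreme of 20.

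Relative to the listed genes, control-only sites were mostly distal. The median distance to a listed start site was 189557 bp, and 1774 sites (65.7%, 63.8 to 67.4) lay over 50 kb from any listed start site and any listed enhancer. That share was 57.7% (55.4 to 60.0) for Chaf1a.166 alone, 62.4% (60.8 to 64.0) for Chaf1a.2122 alone and 64.1% (63.2 to 65.0) for shared sites. The table lists genes with assigned ES cell enhancers only, so a distal site may lie at a gene that it leaves out. Within 1 kb of a listed start site lay 104 control-only sites (3.85%, 3.16 to 4.64), against 2.66% of shared sites (2.37 to 2.98). The single-list classes of the knockdowns had 5.01% (4.06 to 6.12, Chaf1a.166) and 4.57% (3.93 to 5.29, Chaf1a.2122). Sites of 1 list, whichever the hairpin, were thus at least as often at listed start sites as shared sites were.

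Within 500 bp of a listed enhancer lay 51 control-only sites (1.89%, 1.41 to 2.47), against 2.92% of shared sites (2.61 to 3.25), 3.14% of Chaf1a.166 alone (2.39 to 4.05) and 2.22% of Chaf1a.2122 alone (1.77 to 2.74). With a lower bound of enrichment of at least 2 asked of the Renilla list, the shares were 1.13% for 976 control-only sites and 3.08% for 8610 shared sites. With that bound in every list they were 2.24% and 3.02%, and at equal list length 1.97% and 2.95%.

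**Figure D2:**
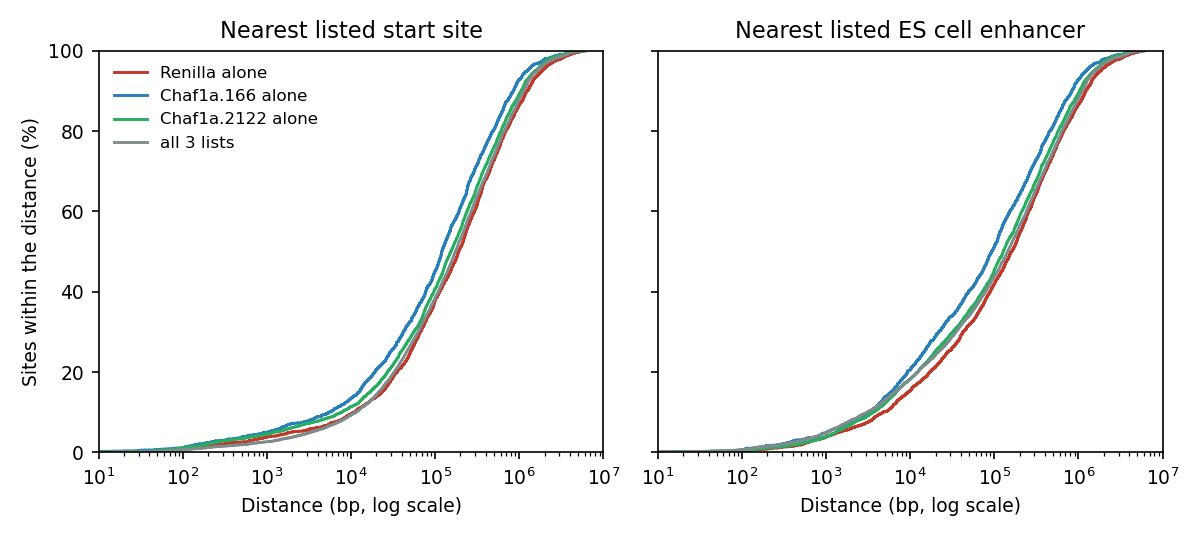
Cumulative share of sites (y axis, %) within a given distance (x axis, bp, log scale) of the nearest listed start site and of the nearest listed ES cell enhancer, for the 2702 sites of Renilla alone, the single-list sites of each knockdown and the 11004 shared sites. Within 10 kb of an enhancer the Renilla curve is the lowest, at 15.4%, against 20.6% (Chaf1a.166), 18.2% (Chaf1a.2122) and 18.4% (shared).

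Because control-only sites were weak, they were also set beside shared sites of the same score, with the Renilla list cut into 4 classes of equal size. Among shared sites the share at start sites was 1.76% in the class of highest scores and 4.80% in that of lowest scores, while among control-only sites it stayed between 3.61% and 3.98%. In the lowest class, 3.98% of 1734 control-only sites (3.11 to 5.01) and 4.80% of 1041 shared sites (3.59 to 6.28) lay within 1 kb of a start site. These 2 intervals overlap, so no order is read from that class. In the third class the shares were 3.61% of 831 and 3.54% of 2034. In the second they were 3.65% of 137 (1.20 to 8.31) and 2.64% of 3558 (2.14 to 3.22). At enhancers the control-only share was the lower value, at 1.44% (0.748 to 2.51) against 2.90% (2.22 to 3.73) in the third class. In the last class it was 2.25% (1.604 to 3.06) against 2.69% (1.79 to 3.86). In the second class none of 137 control-only sites lay at an enhancer (0 to 2.66%), against 2.73% of 3558 shared sites (2.22 to 3.32). The intervals overlap in each of these classes, so no order is read from any of them at enhancers either.

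**Figure D3:**
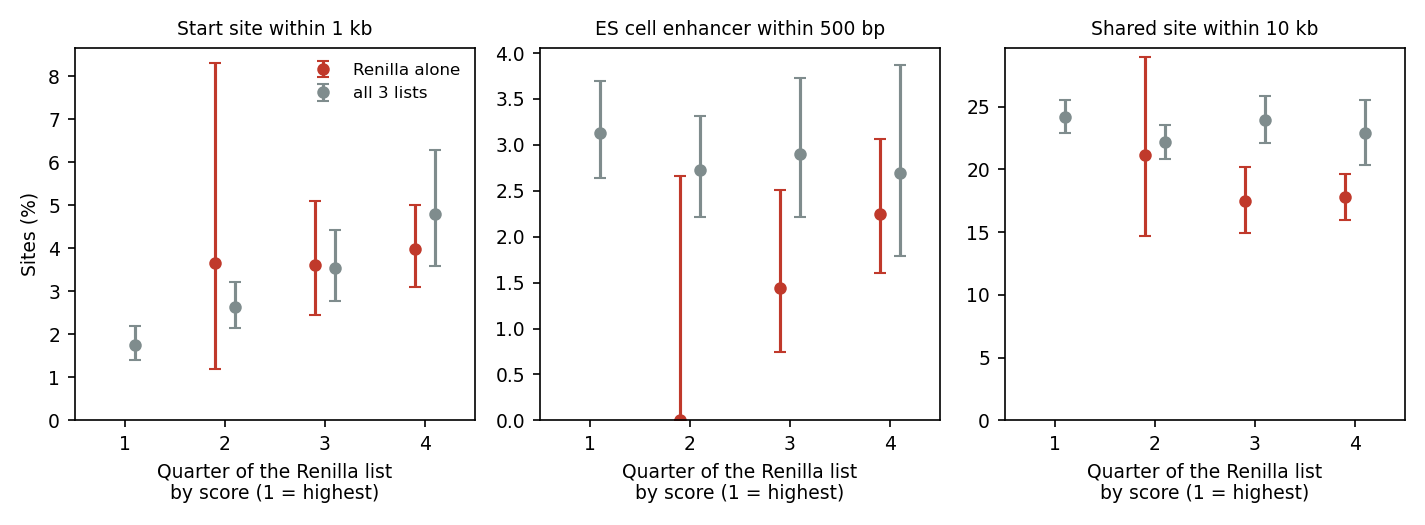
Share of sites (y axis, %) near a listed start site, a listed ES cell enhancer or a shared site, by score class of the Renilla list (x axis, 4 classes of equal size, 1 holds the highest scores), for sites of Renilla alone (red) and shared sites (grey). Points are shares and bars exact 95% intervals; the first class has no site of Renilla alone.

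Around start sites the control-only sites gathered just upstream. Of the 104, 53 (51.0%) lay within 250 bp of the start, against 54.3% of the 293 shared sites within 1 kb. The strand of the gene was known for 88, of which 57 were upstream and 31 downstream, with a median of 108 bp upstream. Of 233 shared sites with a strand, 174 were upstream and 59 downstream, with a median of 123 bp upstream.

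**Figure D4:**
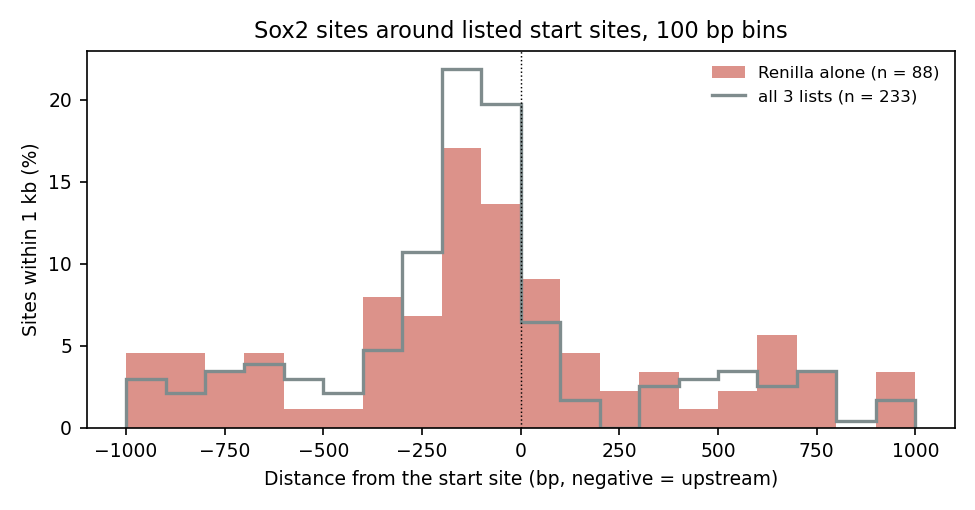
Sox2 sites within 1 kb of a listed start site by distance from it (x axis, bp, negative is upstream, bins of 100 bp; y axis, % of the sites of that class with a known strand). Both the 88 sites of Renilla alone and the 233 shared sites peak in the 200 bp before the start.

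The 15 best-scored control-only sites at start sites are described one by one, grouped only for reading. Each is given with its Sono-seq value, in the deposited unit, which is not stated. Enrichment over input at the 15 sites ran from 2.93 (Mastl) to 28.6 (Prickle2). Its lower bound ran from 1.05 (Mastl) to 4.86 (Prickle2), so not all of them reached a bound of 2. The promoter of Prickle2, a gene of planar cell polarity, had the best rank (7069) and the highest enrichment of these (28.6), 72 bp upstream of its start on chromosome 6 at 92431386. Sono-seq there gave 0.180 in CAF-1 and 0.160 in Renilla. Zfp90, a zinc finger protein, had a site of rank 7884 at 47 bp, with 0.132 in CAF-1 and 0.128 in Renilla. Nras, a Ras GTPase, had one 119 bp upstream (rank 8333, enrichment 9.39), with 0.0991 in CAF-1 and 0.109 in Renilla. The nearest knockdown positions were 14251 bp (Prickle2), 15476 bp (Zfp90) and 23138 bp (Nras) away from these sites.

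At Eif4b, a factor of translation initiation, the site lay 217 bp upstream (rank 8891), with 0.135 in CAF-1 and 0.138 in Renilla. At Rpl32, a protein of the large ribosomal subunit, it lay 199 bp from the start (rank 9153, enrichment 14.1), with 0.179 in CAF-1 and 0.162 in Renilla. The same position is 839 bp from the start of Snora7a, a small nucleolar RNA. At Riok2, a kinase of ribosome assembly, it lay 14 bp upstream (rank 9917), the closest to a start of all 2702. Sono-seq there gave 0.1325 in CAF-1 and 0.1332 in Renilla.

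Tgif1, a repressor in TGF-beta signalling, had 2 control-only sites within 1 kb of start sites, at 613 and 626 bp. The better one (rank 8924) was only 1472 bp from a knockdown position, and its promoter had 0.120 in CAF-1 and 0.142 in Renilla. Baz2b, a bromodomain protein, had a site 34 bp upstream (rank 9689), with 0.0979 in CAF-1 and 0.0835 in Renilla. Sp3, a factor that binds GC boxes, had one 95 bp upstream (rank 10213), with 0.110 in CAF-1 and 0.125 in Renilla. Flywch1, a zinc finger protein, had a site 992 bp downstream (rank 8091), with 0.136 in CAF-1 and 0.114 in Renilla.

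Aox1, an aldehyde oxidase, had a site 316 bp upstream (rank 8581), with 0.160 in CAF-1 and 0.154 in Renilla. Dhodh, an enzyme of pyrimidine synthesis, had one at 79 bp (rank 9103), with 0.128 in CAF-1 and 0.150 in Renilla. Ranbp2, a protein of the nuclear pore, had 2, at 860 and 192 bp (ranks 10211 and 14752), with 0.142 in CAF-1 and 0.116 in Renilla. Mastl, a kinase of mitotic entry, had one 597 bp downstream (rank 9580), with 0.189 in CAF-1 and 0.125 in Renilla. The site at 2810008M24Rik lay 923 bp upstream (rank 10129), with 0.142 in CAF-1 and 0.167 in Renilla. Of these 15 sites, 7 had a promoter value lower in CAF-1 than in Renilla. Over all 5513 promoters 48.2% were higher in CAF-1, so this count is near the background and is not a result about these sites.

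Enhancers with a control-only site were assigned to varied genes, and the 8 best-scored are given. Enrichment over input at these 8 sites ran from 2.73 (Ptprk) to 28.6 (Necap2). Its lower bound ran from 1.11 (Ezr) to 4.86 (Necap2), so not all of them reached a bound of 2. The best lay 58 bp from an enhancer of Ezr, which links membranes to actin, on chromosome 17 at 6970400 (rank 9548, enrichment 4.96), where Sono-seq gave 0.137 in CAF-1 and 0.172 in Renilla. The next lay 125 bp from an enhancer of Tcfap2c, the transcription factor AP-2 gamma, on chromosome 2 at 172591100 (rank 10095), where Sono-seq gave 0.156 in CAF-1 and 0.107 in Renilla. The third was at an enhancer of Ptprk, a receptor phosphatase (rank 11192), with 0.128 in CAF-1 and 0.125 in Renilla. The site at the enhancer of Necap2, a protein of endocytosis (rank 11572), had the highest enrichment of the 8, at 28.6, and its nearest knockdown position 262999 bp away. That enhancer had 0.158 in CAF-1 and 0.158 in Renilla. The other 4 enhancers were assigned to a group of genes with Ckb and Bag5, to 2410002O22Rik, to Tcl1 and Snhg10, and to Tmem62 and Ubr1. Tcl1 is a coactivator of Akt known from ES cells, and its enhancer had 0.163 in CAF-1 and 0.178 in Renilla. Necap2 had the most remote knockdown position of the 8. The distance was 2375 bp for the Ezr site, 4898 bp for Tcl1 and 6760 bp for Tcfap2c. It was 22879 bp for the site of the Ckb group, 23180 bp for 2410002O22Rik, 30858 bp for Tmem62 and 67923 bp for Ptprk.

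Within 10 kb of a start site, 299 of 5154 listed genes had a control-only site, a background of 5.8%. Of the 299, 132 also had a knockdown position within 10 kb and 75 a shared site, while 167 (55.9%) had no knockdown position in that range, beside 62% of all listed genes. Within 2 kb the shares without a knockdown position were 88.8% of 152 genes near a control-only site and 79.6% of all listed genes, and within 50 kb 18.2% of 877 and 23.9%. These shares follow the window, and which of them is higher turned with it. By the same count, 271 genes (5.26%) were near a site of Chaf1a.166 alone, 501 (9.72%) near one of Chaf1a.2122 alone and 1015 (19.7%) near a shared site. One gene had 4 control-only sites within 50 kb, Tbcc, a chaperone of tubulin folding, with ranks from 11509 to 16854 and distances of 14132 to 47989 bp. Another 5 had 3, namely Actn1, Gemin5, Gpc6, Pdlim1 and Ppp1cb.

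None of the 30 pluripotency genes in the table had a control-only site within 10 kb, against 9 with a shared site, 4 with a site of Chaf1a.166 alone and 1 of Chaf1a.2122 alone. Beside a background of 5.8%, a count of 0 in 30 genes is not read as a result about the list. The epithelial list had 0 of 8, the chromatin assembly list 0 of 8 and the endothelial list 0 of 3, and no muscle gene was in the table. The fibroblast list had 1 of 5, Fbln1, a matrix protein, at 3030 bp, with a low-scored site (rank 16916 of 17681). The nearest knockdown position was 78204 bp from the Fbln1 start. The neural list had 1 of 5, Notch1, a receptor, at 3099 bp. Notch1 also had a shared site 361 bp from its start, so control and knockdown cells both had Sox2 there. Of the macrophage list only Cd68 was in the table, with a site at 242 bp (rank 14444). Knockdown positions lay 3372 bp (Chaf1a.166) and 5335 bp (Chaf1a.2122) from the Cd68 start. The cell cycle list had 2 of 15, Aurka, a mitotic kinase, at 393 bp and the tumour suppressor Rb1 at 5570 bp. The nearest knockdown position was 25112 bp from the Aurka start. Rb1 had a knockdown position at 9890 bp and a shared site at 9784 bp. Aurka shares its site with Cstf1, a factor of mRNA 3′ processing whose promoter is printed above, since their start sites on chromosome 2 are neighbours.

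Among gene families taken by name, histone genes had the highest share, with 10 of 60 (16.7%). Those 10 rest on 3 positions in dense histone clusters, at 22133262 and 23650195 on chromosome 13 and 96067412 on chromosome 3, so they are not independent. A position 41 bp from Hist1h4i and one 172 bp from Hist2h4 were the closest. In the same family 37 genes were near a shared site, 20 near a site of Chaf1a.2122 alone and 5 near one of Chaf1a.166 alone. Zinc finger proteins had 8 of 113 (7.08%), solute carriers 7 of 93 (7.53%), ubiquitin and proteasome genes 5 of 55 (9.09%), small RNA genes 5 of 82 (6.10%) and cytosolic ribosomal proteins 3 of 48 (6.25%). Mitochondrial ribosomal proteins had 0 of 30. Apart from the histones, the family shares ran from 0% to 9.09%, around the 5.8% of all genes.

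Sono-seq values do not enter the rule and were read at the listed regions within 500 bp of a control-only site. They gave 77 promoters and 51 enhancers. The 77 promoters are start sites at 69 control-only sites, and some neighbours carry the same values, such as Tax1bp3 and a start of Tmem93. The intervals below count such promoters as separate. With 1 value per condition no test was possible, and medians over regions are given with intervals from order statistics. At the 77 promoters the value ran from 0.0668 to 0.182 in CAF-1, with a median of 0.137, and from 0.0688 to 0.178 in Renilla, with a median of 0.141. The median of the log2 ratios (CAF-1 over Renilla) was -0.053 (-0.11 to 0.010), and 32 promoters (41.6%, 30.4 to 53.4) were higher in CAF-1. Over all 5513 promoters the median was -0.0093 and 48.2% were higher. At the promoters of shared sites the median was -0.0013 (n = 231), at those of Chaf1a.166 alone -0.059 (n = 76) and at those of Chaf1a.2122 alone 0.0045 (n = 150). The interval of the control-only promoters includes the median of all promoters, and Chaf1a.166 alone had about the same value.

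Of the 77 promoters, 3 (3.90%) were at least 25% higher in CAF-1, where the background over all promoters is 6.68%. At least 20% lower were 4 (5.19%), where the background is 8.98%. Counts this small and this near the background are not a result about these promoters. The lowest log2 ratio was at Eif4a2, an RNA helicase of translation initiation, with 0.0992 in CAF-1 and 0.161 in Renilla (-0.70). Next were Pak4, a kinase of the actin cytoskeleton (-0.38), and Ndufs4, a subunit of respiratory complex I (-0.38). The highest ratios were at the splicing regulators Celf1, with 0.141 in CAF-1 and 0.105 in Renilla (0.43), and Rbm4 (0.38), and at Zfp708 (0.34).

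At the 51 enhancers the median was 0.149 in CAF-1 and 0.141 in Renilla, and the median log2 ratio 0.034 (-0.035 to 0.060), with 28 (54.9%) higher in CAF-1. Over all 14265 enhancers the median was 0.028 with 55.3% higher, and at enhancers of shared sites 0.017 (n = 321). At least 25% higher in CAF-1 were 4 (7.84%), beside a background of 10.3%, and at least 20% lower 3 (5.88%), beside 6.58%. The highest ratio was that of the Tcfap2c enhancer (0.54), then those of Ern1 with Snord104 (0.37) and Snx30 (0.36). Ern1 encodes the stress sensor IRE1. The lowest were at enhancers of Map4k3, a kinase of amino acid signalling (-0.60), of Capzb, which caps actin filaments (-0.44), and of Ezr (-0.33). The 298 enhancers assigned to the 75 genes with a control-only site at the promoter had a median of 0.018, with 53.4% higher in CAF-1.

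**Figure D5:**
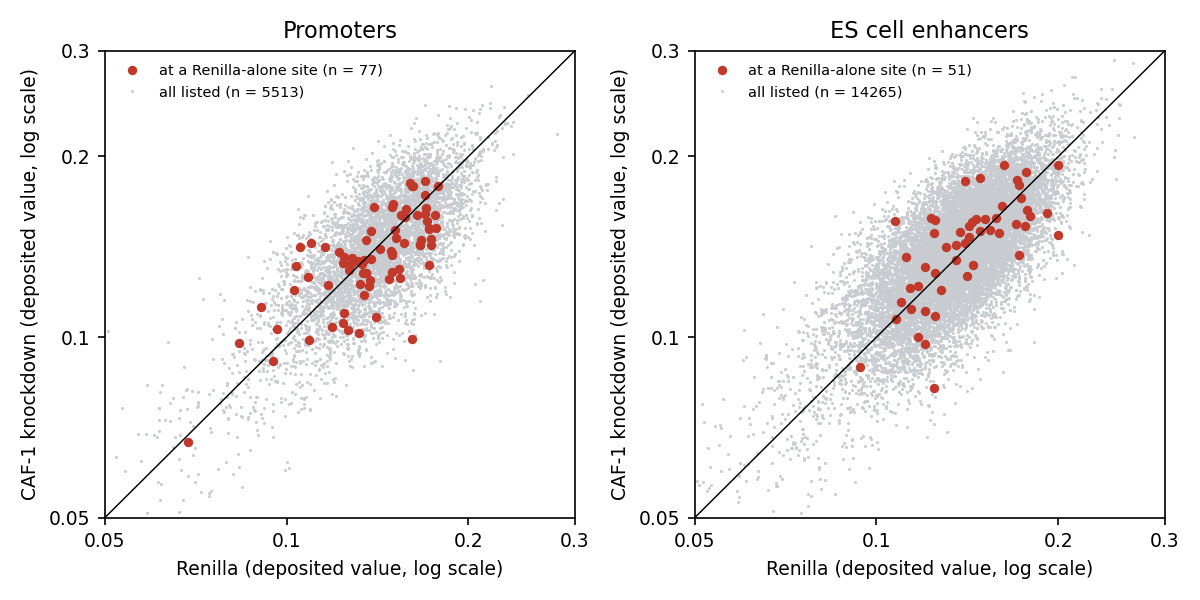
Deposited Sono-seq value of each listed region in CAF-1 knockdown (y axis) against Renilla (x axis), both on log scales in the authors' unit, for promoters and ES cell enhancers; the line marks equal values. Red points are the 77 promoters and 51 enhancers within 500 bp of a site of Renilla alone and lie within the cloud of all regions (grey); 36 promoters and 59 enhancers, none of them red, fall outside the axes.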

How the data were processed

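The Sox2 lists were deposited as binding positions carrying the score, E-value, q-value (false discovery rate) and enrichment ratio to input, plus the lower bound of that ratio, per the file headers. The highest deposited q-value is 0.000644. The build is mm9, and the tools listed, with no step assigned, include Bowtie and BWA 0.7.8, per the submitters' processing notes. The caller and the read depth are not given in the sources used here, so absence from a list means only absence at its threshold. The authors' Sono-seq values, treated as a score, come without unit or scaling and as 1 value for 3 libraries, which replaced the planned test per library by a description. Enhancer and promoter regions come from a published ES cell set, per the file headers.

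Sites were joined with Python 3.11.15, pandas 2.3.3 and numpy 2.4.6, and intervals made with scipy 1.17.1. The joining was tested on simulated lists. Distances run from the best Renilla position of a site. Symbols turned into dates (136 rows) were restored through RefSeq transcripts (5411 of 5510 found). The members and gene lists were chosen with earlier results of these data known. Named are the best-scored sites overall (5), at start sites (15) and at enhancers (8), the most isolated ones, list genes within 10 kb, genes with most sites, and, for each region type, the Sono-seq ratios ranking 3 highest and 3 lowest. Promoters were printed only for genes with 1 entry. The other 49 of 61 samples were not used here. Alternatives changed joining, the 1 kb limit, list thresholds, windows and Sono-seq scaling.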

Additional observations from a re-analysis of the deposited data

How the results depend on the processing

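No paired analysis was possible because each Sox2 list comes from 1 immunoprecipitate and Sono-seq was deposited as 1 value per condition. Leaving out replicates could not be run either. The number of control-only sites was between 2220 and 2841 under every alternative except one. A lower bound of enrichment of at least 2 asked of the Renilla list only left 976, which follows from the filter. Asked of every list, that bound also removes knockdown positions. Of the 2500 sites counted then, at most 976 can be among the 2702, so the similar number is not the same set of sites. The share within 1 kb of a start site kept to its interval except where the window changed, to 2.55% at 500 bp and 5.11% at 2 kb. The share within 500 bp of an enhancer was 0.851% at 200 bp and 3.85% at 1 kb, and 1.13% with the bound on the Renilla list. The share within 10 kb of a shared site depended most on the rule. It was 19.96% with a limit of 500 bp to knockdown positions, 14.5% with 2 kb and 8.20% with 5 kb, 11.5% with the bound in every list and 13.4% with it in the Renilla list only, and 9.70% and 50.6% for windows of 5 and 50 kb. Genes near a control-only site numbered 152 within 2 kb and 877 within 50 kb. Both Sono-seq medians stayed within their intervals under all 7 alternatives each, with promoters between -0.072 and -0.0026 and enhancers between 0.0019 and 0.041. Restricting to the lowest of the 4 score classes, an alternative chosen after seeing the data, left the 3 location shares within their intervals.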
